A study of Rattus norvegicus with 6 samples.

Results

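The genes described here encode the nuclear subunits of the mitochondrial respiratory chain and of the ATP synthase, measured in rat primary motor neuron cultures after a short exposure to camptothecin. They were chosen by name: every row with 1 gene symbol starting with Ndufa, Ndufb, Ndufc, Ndufs, Ndufv, Uqcr, Cox4 to Cox8 or Atp5, plus the Sdh genes, Cyc1 and Cycs, without the Ndufaf assembly factors and with the brightest row kept for each gene. This gave 78 genes of 14506 with a single symbol, measured by 91 transcript clusters, the groups of probes that report 1 transcript. Cyc1 had no row of this kind and is not analysed here, nor are subunits encoded by mitochondrial DNA. RefSeq annotates 76 of the 78 as protein-coding and Ndufs6-ps1 and Cox6c-ps1 as pseudogenes. The cultures came from rat embryos at embryonic day 13.5, spent 2 days in vitro, and were exposed for 2 h to 1 microM camptothecin, which locks topoisomerase 1 onto the DNA it has cut, or to DMSO, its solvent, with 3 arrays for each treatment. The labels give no strain, sex or genotype. Arrays of one treatment are described as biological replicates, with no word on whether separate dissections were used, so the p-values cover the spread among these 6 samples, which may be technical.

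The respiratory chain passes electrons from NADH (complex I) and succinate (complex II) through complex III and cytochrome c to oxygen at complex IV, and the proton gradient built on the way drives ATP synthase, also called complex V. Most subunits are encoded in the nucleus and imported, and many of their promoters carry sites for nuclear respiratory factor 1 (gene Nrf1) and for ETS factors such as GABP. Motor neurons, which drive muscle through long axons, depend heavily on this source of ATP.

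Promoter sequence is shown first because these genes are textbook targets of Nrf1 and GABP, and the gene for the first of these was itself lower after camptothecin, as given further down. RefSeq promoter windows of the rat assembly GRCr8 were found for 68 of the 78 genes. The 250 bases before the most upstream start among the windows of a gene were searched on both strands. For some genes with a match, such as Ndufs5, Sdhb, Uqcrq and Atp5me, the annotated gene span reaches further upstream than that start. The genes printed below are not among these. The Nrf1 core, which reads GCGCA, any base and then GCGC, was present in 10 of the 68 windows (14.7%) against 6.74% of the 11950 tested genes with a window. The ETS core CCGGAAG was present in 19 (27.9%) against 11.2%. The other 4 motifs searched were the YY1 core AAGATGGC (2 windows, 2.94% against 1.80%), the cyclic AMP response element TGACGTCA (3, 4.41% against 2.28%), the GC box GGGCGG (25, 36.8% against 47.3%) and TATAAA (5, 7.35% against 11.2%). These motifs can overlap, and a match is a description of letters, not of a bound factor. Of the 10 genes with the Nrf1 core 6, and of the 58 without it 22, rose, and the median log2 changes were 0.41 and 0.23. For the ETS core 10 of 19 with it and 18 of 49 without it rose, with medians of 0.26 and 0.23. The share that rose was also higher with than without each of the other 4 motifs. It was 50% against 40.9% for YY1 and 66.7% against 40% for the cyclic AMP response element. For the GC box it was 48% against 37.2%, and for TATAAA 60% against 39.7%. Over all genes tested 11.3% rose, and their share by motif was not counted. The 120 bases before the start follow for 5 genes that rose and for Sdha and Uqcrc2, which did not pass the test, to show that both kinds carry the same letters; capitals mark the Nrf1 core in Atp5po (chr11:44657484-44657603, minus strand), Ndufv3 (chr20:9613666-9613785, plus), Ndufa5 (chr4:53971236-53971355, minus) and Sdha (chr1:30764433-30764552, plus), and the ETS core in Uqcrh (chr5:134790883-134791002, minus), Cox8a (chr1:213833624-213833743, minus) and Uqcrc2 (chr1:184599120-184599239, plus). All are GRCr8 and read 5′ to 3′ towards the gene.
Atp5po: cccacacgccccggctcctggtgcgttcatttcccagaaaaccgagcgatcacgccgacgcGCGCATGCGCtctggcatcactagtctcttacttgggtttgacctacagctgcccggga
Ndufv3: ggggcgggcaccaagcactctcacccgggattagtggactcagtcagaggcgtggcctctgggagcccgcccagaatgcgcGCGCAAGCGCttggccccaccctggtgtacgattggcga
Ndufa5: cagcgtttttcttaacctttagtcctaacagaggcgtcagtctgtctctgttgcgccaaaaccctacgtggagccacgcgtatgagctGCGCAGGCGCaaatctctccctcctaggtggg
Sdha: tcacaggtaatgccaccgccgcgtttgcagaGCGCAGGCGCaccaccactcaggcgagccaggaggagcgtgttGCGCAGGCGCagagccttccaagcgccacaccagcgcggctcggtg
Uqcrh: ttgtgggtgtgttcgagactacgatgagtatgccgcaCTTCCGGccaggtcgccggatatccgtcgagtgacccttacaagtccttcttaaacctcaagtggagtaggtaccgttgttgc
Cox8a: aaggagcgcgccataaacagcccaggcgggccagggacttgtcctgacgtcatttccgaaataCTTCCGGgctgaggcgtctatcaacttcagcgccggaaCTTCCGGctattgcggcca
Uqcrc2: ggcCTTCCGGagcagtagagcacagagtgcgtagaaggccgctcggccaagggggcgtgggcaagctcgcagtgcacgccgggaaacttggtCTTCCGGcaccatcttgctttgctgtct

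The values are log2 expression as deposited, and array medians over all 29214 clusters were 6.31 to 6.33 with camptothecin and 6.22 to 6.28 with DMSO. Arrays given the same treatment correlated with Pearson's r of 0.992 to 0.995 over all clusters, and arrays given different treatments with 0.983 to 0.985. Of the 11 motor neuron markers checked, 9 were measured, and 5 of these (Isl1, Isl2, Slc18a3, Slc5a7 and Prph) were dim, meaning that their mean lay below 6.28, the median of all cluster means. Of the 9, 3 rose (Nefh by 0.59, Nefm by 0.42 and Prph by 0.31) and 0 fell, where 11.3% of all genes rose and 9.35% fell. With arrays centred on ribosomal protein genes 1 rose and 3 fell (33.3%), where 2.47% of all genes rose and 29.9% fell. Their summed log2 level was 62.7 to 64.2 on the camptothecin arrays and 62.3 to 62.6 on the DMSO arrays. Mnx1 and Chat are not analysed here. Of the 8 spinal interneuron markers 0 were dim and 5 fell: Slc6a5 (-1.79), Gad2 (-0.99), Slc17a6 (-0.80), Gad1 (-0.57) and Pax2 (-0.25). These 5 have annotated genomic spans of 40.1 to 91.2 kb. Lhx5 (0.26), Slc32a1 (0.23) and Lhx1 (0.10), of 4.47 to 8.44 kb, did not pass the test. Summed over the 8, the log2 level was 65.6 to 66.5 on the camptothecin arrays and 69.2 to 70.2 on the DMSO arrays. No marker was at 0. The part of span in these falls, and of either marker list in the values below, was not tested. In such bulk samples, fewer cells of a type and less RNA per cell cannot be told apart.

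After camptothecin 34 of the 78 genes rose and 0 fell, and the largest rise was 1.504-fold. Calls use limma's moderated test over all 29214 clusters with a Benjamini-Hochberg adjusted p under 0.05. Over all genes 11.3% rose and 9.35% fell, so the share of 43.6% that rose lay above that background and the share that fell below it. Among genes under 10 kb with a mean level of 9 or more, 63.9% of the set and 47.1% of other genes rose, as given further down. The median log2 change was 0.25 (1.19-fold), against 0.06 over all genes, and single genes ran from -0.12 to 0.59. Values above 0 were found for 74 of the 78, and for 9064 of the 14506 genes tested. With arrays centred on ribosomal protein genes 39 of the 78 and 2600 of the 14506 were above 0. For 59 genes all 3 camptothecin arrays lay above all 3 DMSO arrays, a pattern shown by 27.1% of all genes, and for 0 genes they all lay below, against 15.5% of all genes. No filter on low values was applied; 74 of the 78 genes were above the dim limit, and the 4 dim ones (Cox8b, Cox8c, Cox4i2 and Cox6c-ps1) did not pass the test. The count rests on all arrays: it was 21 without camptothecin replicate 1, 17 without camptothecin replicate 2, 19 without camptothecin replicate 3, 15 without DMSO replicate 1, and 11 without DMSO replicate 2 or DMSO replicate 3.

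The array of camptothecin replicate 2 was the highest of its treatment for 61 of the 78 genes, and for 49.6% of all genes. The mean over the 78 genes was 9.72, 9.81 and 9.70 on the 3 camptothecin arrays and 9.51, 9.48 and 9.48 on the 3 DMSO arrays. These means did not overlap, and the lowest camptothecin array was that of replicate 3. Set against the mean of the DMSO arrays, the median gene was higher by 0.22, 0.33 and 0.21 on camptothecin arrays 1, 2 and 3. Without camptothecin replicate 2 the median change over the 78 genes was 0.22.

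**Figure D1:**
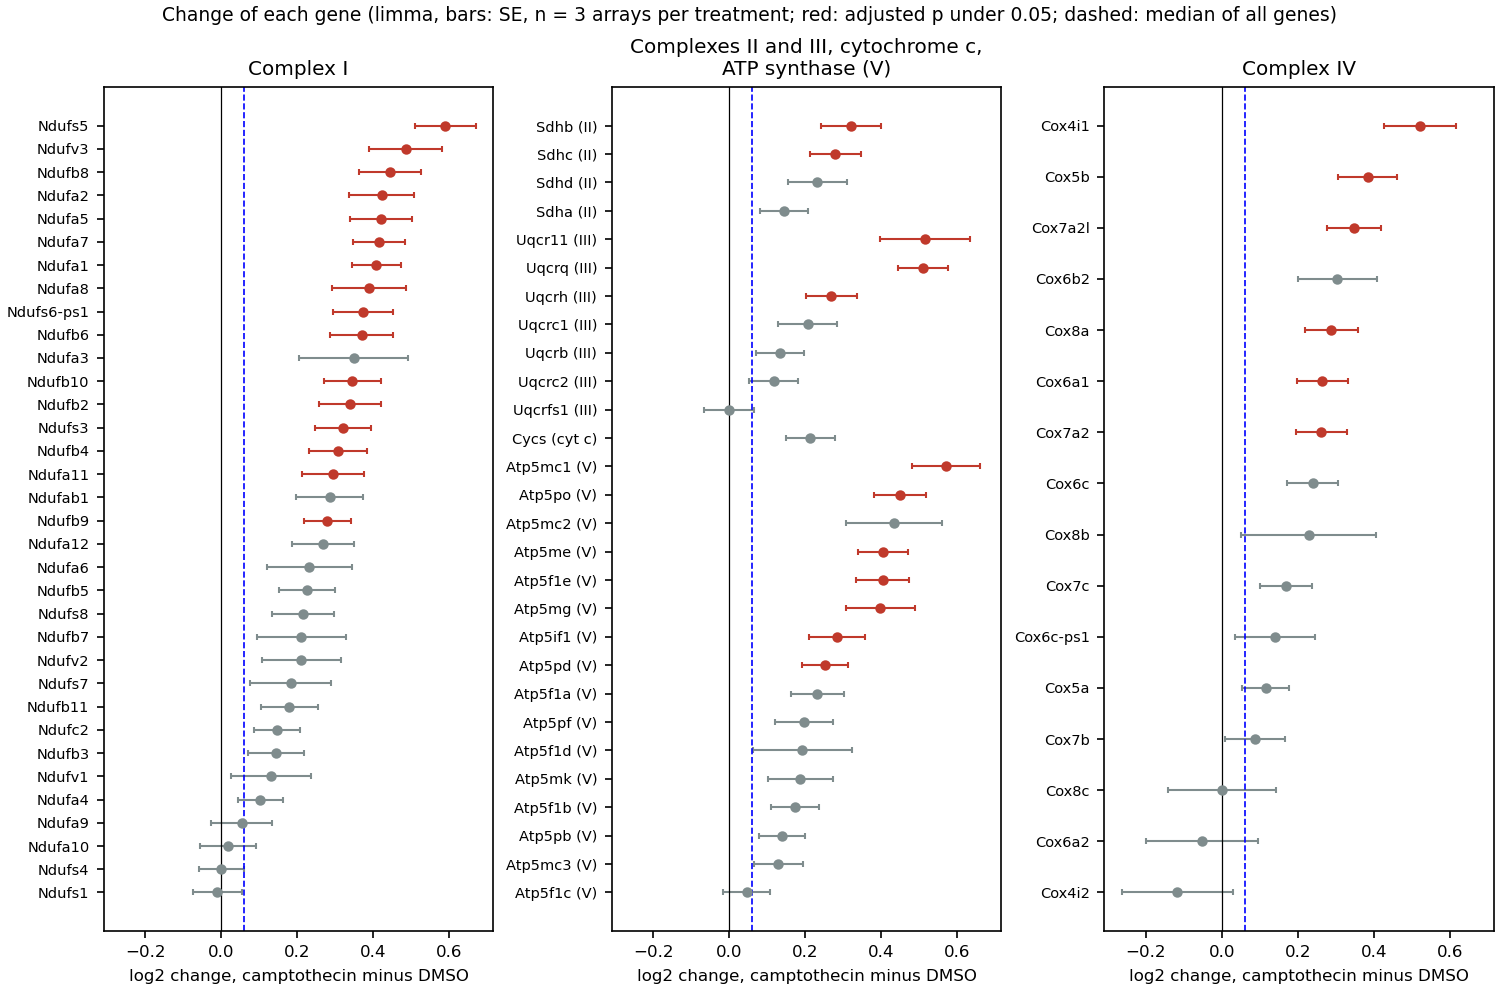
Log2 change of each of the 78 genes, camptothecin minus DMSO, by complex; points are limma estimates, bars are SE (n = 3 arrays per treatment), red marks adjusted p under 0.05 and the dashed line is the median of all genes (0.06). Red points are found in complexes I, II, III, IV and V, and the lowest values belong to Cox4i2, Cox6a2 and Ndufs1.

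Complex I, the NADH dehydrogenase that feeds most electrons into the chain, had 34 measured genes, of which 16 rose and 0 fell, with a median change of 0.28. Ndufs5, an accessory subunit, read 9.47, 9.58 and 9.41 with camptothecin and 8.82, 8.88 and 8.999 with DMSO. It had the largest change of the 78 genes, 0.59 (SE 0.08, n = 3 per treatment, adjusted p = 0.00394), and the lowest camptothecin array lay 0.41 above the highest DMSO array. Its other cluster, which is dimmer, gave 0.54 (adjusted p = 0.00769). Ndufv3, a small subunit of the NADH-oxidising module, read 9.52, 9.85 and 9.62 against 9.21, 9.18 and 9.16, a change of 0.49 (SE 0.10, adjusted p = 0.0152). A dimmer cluster of Ndufv3 gave 0.15 with overlapping arrays (SE 0.12, adjusted p = 0.45), so the clusters of this gene differ in their call.

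Ndufb8, a subunit of the membrane arm, read 10.06, 10.27 and 10.07 with camptothecin and 9.66, 9.66 and 9.75 with DMSO, a change of 0.44 (SE 0.08, adjusted p = 0.0118). The accessory subunit genes Ndufa2 (8.18, 8.20 and 7.96 against 7.69, 7.74 and 7.64) and Ndufa5 (9.86, 9.76 and 9.63 against 9.31, 9.29 and 9.40) both changed by 0.42 (adjusted p = 0.0167 and 0.0144). On both, camptothecin replicate 3 was the lowest of the treated arrays and still above every DMSO array. Ndufa7 read 9.37, 9.45 and 9.35 against 9.003, 9.02 and 8.90, a change of 0.42 (SE 0.07, adjusted p = 0.00815). Ndufa1, an X-linked accessory subunit gene needed for assembly of the complex, read 10.997, 10.92 and 10.91 against 10.56, 10.51 and 10.53. It changed by 0.41 (SE 0.06, adjusted p = 0.00647), and here camptothecin replicate 1 was the highest array.

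The other risers of complex I were Ndufa8 (0.39), the pseudogene row Ndufs6-ps1 (0.37), Ndufb6 (0.37), Ndufb10 (0.34), Ndufb2 (0.34), Ndufs3 (0.32), Ndufb4 (0.31), Ndufa11 (0.29) and Ndufb9 (0.28). Rows such as Ndufs6-ps1, whose sequence resembles that of a parent gene, may share signal with it, so their assignment is uncertain. Among the core subunits, conserved from bacteria and including the carriers of the flavin and iron-sulfur clusters, 6 were measured and 1 rose, Ndufs3. The median change of these 6 was 0.20. Of the 28 other genes named as complex I, among them the pseudogene row Ndufs6-ps1 and Ndufa4, a subunit now assigned to complex IV, 15 rose, with a median of 0.30. Core subunits Ndufs8 (0.21), Ndufv2 (0.21), Ndufs7 (0.18) and Ndufv1 (0.13) did not pass the test. Ndufs1, the largest iron-sulfur subunit, read 10.27, 10.34 and 10.27 against 10.31, 10.34 and 10.25, with a change of -0.01 (SE 0.06, adjusted p = 0.936), the lowest of the complex. Ndufs4, an accessory subunit whose loss causes Leigh syndrome, gave 0.00 (SE 0.06), and its 6 arrays lay between 10.58 and 10.61. Ndufa10 (0.02), Ndufa9 (0.05) and Ndufa4 (0.10) also stayed short of the threshold.

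Complex II, succinate dehydrogenase, links the chain to the tricarboxylic acid cycle. All 4 of its genes had camptothecin arrays above DMSO arrays, a pattern shown by 27.1% of all genes. Sdhb, the iron-sulfur subunit, read 9.82, 10.05 and 9.90 with camptothecin and 9.62, 9.60 and 9.59 with DMSO. Its change of 0.32 (SE 0.08, adjusted p = 0.0323) was the largest of the complex, with the treated arrays more spread (SD 0.12, n = 3) than the DMSO arrays (SD 0.02, n = 3). The membrane anchor gene Sdhc rose by 0.28 (adjusted p = 0.0313). The other anchor gene, Sdhd (0.23, adjusted p = 0.0843), and Sdha, the flavoprotein subunit (0.14, adjusted p = 0.168), did not pass.

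Complex III, the ubiquinol-cytochrome c reductase, had 3 risers among 7 genes. Uqcrq, a small subunit next to cytochrome b, read 10.30, 10.17 and 10.26 with camptothecin and 9.74, 9.72 and 9.74 with DMSO, a change of 0.51 (SE 0.07, adjusted p = 0.00301). The DMSO arrays lay within a narrow band, and the lowest camptothecin array was 0.43 above them. Uqcr11, another small subunit, read 8.85, 9.30 and 8.97 against 8.51, 8.58 and 8.48 and also changed by 0.51, with a larger error (SE 0.12, adjusted p = 0.0267). Uqcrh, the hinge protein of the cytochrome c1 site, rose by 0.27 (adjusted p = 0.0338). The core proteins Uqcrc1 (0.21) and Uqcrc2 (0.12), and Uqcrb (0.13, with 2 further clusters at 0.15 and 0.16), did not pass. Uqcrfs1, which carries the Rieske iron-sulfur cluster, was the lowest of the complex at -0.000681 (SE 0.06), and its arrays overlapped between treatments. Cycs, the somatic cytochrome c that also triggers caspases when released, read 11.60, 11.63 and 11.54 against 11.39, 11.33 and 11.41. Its change of 0.21 (SE 0.06) missed the threshold with adjusted p = 0.0632, although the arrays did not overlap; its other cluster gave 0.23 (adjusted p = 0.0513).

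Complex IV, cytochrome c oxidase, had 6 risers among 16 genes. Cox4i1, the general form of the regulatory subunit IV, read 10.13, 10.45 and 10.28 with camptothecin and 9.71, 9.82 and 9.77 with DMSO, a change of 0.52 (1.43-fold, SE 0.09, adjusted p = 0.0115). Cox4i2, its lung and hypoxia-linked sister, read 5.51, 5.27 and 5.81 against 5.70, 5.76 and 5.48, a change of -0.12 (SE 0.15), with overlapping arrays and dim values. Such pairs of isoforms were followed because tissues swap them. Cox6a1 rose by 0.26 (adjusted p = 0.0373), while the heart and muscle form Cox6a2 gave -0.05 (SE 0.15). Likewise Cox8a rose by 0.29 (adjusted p = 0.0313), while Cox8b, another muscle form, gave 0.23 with a wide error (SE 0.18, adjusted p = 0.434) and dim values. Cox7a2 rose by 0.26 on both of its clusters (adjusted p = 0.0373 and 0.0425). Cox6b2, the testis form, gave 0.30 (SE 0.10, adjusted p = 0.0902), with arrays that stayed 0.004 apart. Over the 5 tissue forms Cox4i2, Cox6a2, Cox6b2, Cox8b and Cox8c the count of risers was 0 and the median change 0.00; over the other 11 genes 6 rose, with a median of 0.26. Cox5b (0.38) and Cox7a2l, a factor of respiratory supercomplexes (0.35), completed the risers. The levels of 2 isoforms come from different probes and are not compared, and no difference between isoforms was tested.

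ATP synthase had 7 risers among 16 genes, and all 16 changes were above 0, as were those of 9064 of the 14506 genes tested. Atp5mc1, 1 of 3 genes for the same mature c subunit that forms the rotor ring, read 9.70, 9.95 and 9.71 with camptothecin and 9.25, 9.24 and 9.16 with DMSO. Its change of 0.57 (1.48-fold, SE 0.09, adjusted p = 0.00663) was the second largest of the 78 genes. Atp5mc2 gave 0.43 (SE 0.13) and missed the threshold on its brighter cluster (adjusted p = 0.0567), where camptothecin replicate 2 read 10.32 and the other treated arrays 9.82 and 9.99; its dimmer cluster passed with 0.61 (adjusted p = 0.0209). Atp5mc3, the third gene, gave 0.13 and 0.18 on its 2 clusters and passed on neither (adjusted p = 0.217 and 0.0891). Whether the 3 genes differ was not tested.

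Atp5po, the stalk protein that confers oligomycin sensitivity, read 9.99, 10.05 and 9.91 against 9.57, 9.54 and 9.50. It rose by 0.45 (SE 0.07, adjusted p = 0.00594), with 0.34 between the lowest treated and the highest DMSO array. Atp5me (0.40) and Atp5mg (0.40), both subunits of the membrane part that shape the dimer, rose too, as did Atp5if1 (0.28), the inhibitor that stops the enzyme from hydrolysing ATP. Atp5pd, a peripheral stalk subunit, rose by 0.25 on its brighter cluster (adjusted p = 0.03) and gave 0.24 on the other (adjusted p = 0.0506). In the catalytic F1 head 1 of 5 genes rose, Atp5f1e (0.40, adjusted p = 0.00899). The catalytic and rotor genes Atp5f1a (0.23), Atp5f1d (0.19), Atp5f1b (0.17) and Atp5f1c (0.05, the lowest of the complex) did not pass.

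**Figure D2:**
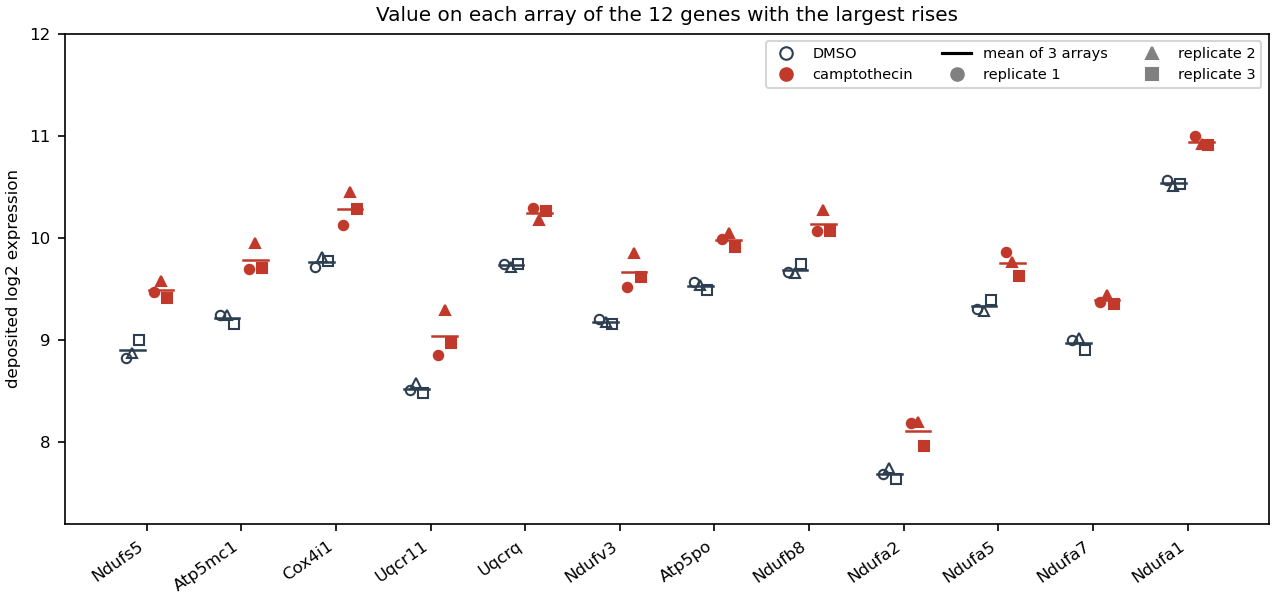
Deposited log2 expression on each of the 6 arrays for the 12 genes with the largest rises; symbols mark replicate numbers, open points DMSO, filled points camptothecin, and lines the mean of 3 arrays. In all 12 the camptothecin points sit above the DMSO points, by at least 0.22 for the nearest pair of arrays, in Ndufa2.

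Genomic span and brightness varied among the 78 genes, and the change tended weakly to be smaller at longer spans and higher DMSO levels. Their median annotated span was 7.07 kb in GRCr8, against 18.0 kb over all genes tested. Of the 53 genes under 10 kb, 28 rose (52.8%), with a median change of 0.28; of all genes under 10 kb 15.3% rose, with a median of 0.10. From 10 to 30 kb 6 of 21 rose (28.6%), with a median of 0.23; of all genes of that span 15.1% rose, with a median of 0.11. The 4 genes of 30 kb or more were Uqcrc2, Ndufs1, Ndufa10 and Ndufs4, the last at 110 kb, and 0 of them rose or fell. Of all 3516 genes from 30 to 100 kb 5.43% rose and 569 fell, and of all 1632 genes of 100 kb or more 1.84% rose and 569 fell. Across the 78 genes, which are not independent replicates and share the 6 arrays, Spearman's rho between span and change was -0.25, and between the DMSO level and change, which share the DMSO arrays, it was -0.21. Over the 74 genes that were not dim these values were -0.31 and -0.34.

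Short and bright genes outside the respiratory chain were also often higher. Among the 507 genes under 10 kb with a mean level of 9 or more that are not in the respiratory chain, 47.1% rose and the median change was 0.26. The 36 respiratory chain and ATP synthase genes within the same limits had a median of 0.29, and 23 of them (63.9%) rose. Within the set, the 18 genes with a mean level of 11 or more, such as Ndufa4, Cox7b and Atp5mc3, had a median change of 0.16 and 4 risers. The 26 genes from 9 to 10 had a median of 0.33 and 15 risers. These values are a description, and the part of span or brightness in the change was not tested.

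**Figure D3:**
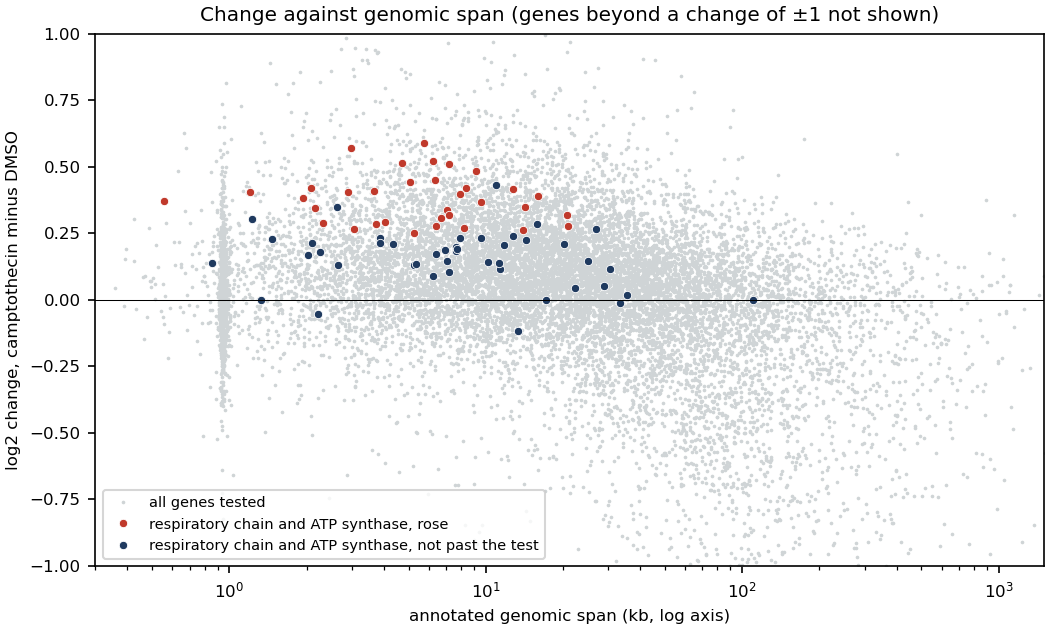
Log2 change, camptothecin minus DMSO, against annotated genomic span in kb (log axis) for all genes tested (grey) and for the 78 respiratory chain and ATP synthase genes (red, rose; dark blue, not past the test); genes beyond a change of 1 in either direction are not shown. Red points end at 20.9 kb, with Sdhc, and Ndufs4, at 110 kb, lies at 0.00.

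The size and the direction of these changes depend on what each array is scaled to. When every array was set to the same median, 18 of the 78 genes rose and 0 fell, against 6.29% and 11.1% of all genes, and the median change was 0.18. When every array was instead set to the same mean over 71 genes of cytoplasmic ribosomal proteins, 5 of the 78 rose and 3 fell, against 2.47% and 29.9% of all genes, and the median was -0.00391 where that of all genes was -0.19. The change of the median cluster moves by -0.25 under this reference. The 5 genes above the ribosomal reference were Ndufs5 (0.34, adjusted p = 0.0164), Atp5mc1 (0.32, adjusted p = 0.0188), Cox4i1 (0.27, adjusted p = 0.0456), Uqcrq (0.26, adjusted p = 0.0468) and Atp5po (0.20, adjusted p = 0.0487). Below it were Ndufs1 (-0.26, adjusted p = 0.0214), Ndufs4 (-0.25, adjusted p = 0.0262) and Uqcrfs1 (-0.25, adjusted p = 0.0305). Either centring shifts the change of every gene by the same amount. The distance between the median of the 78 genes and that of all genes is therefore fixed across the 3 scales.

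**Figure D4:**
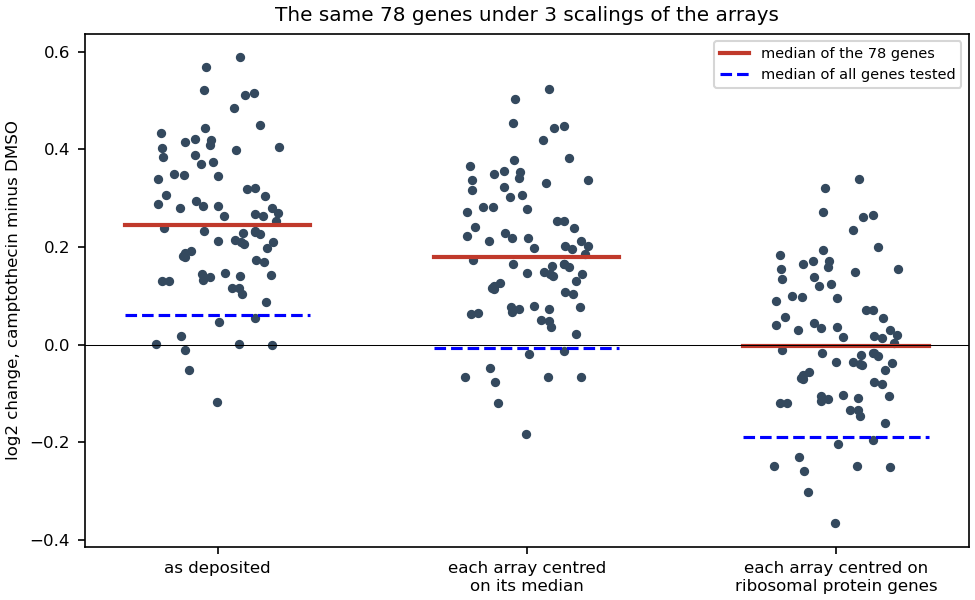
Log2 changes of the same 78 genes on the deposited scale, after centring arrays on their medians, and after centring them on ribosomal protein genes; red lines are the median of the 78 genes and dashed lines that of all genes tested. The red line moves from 0.25 to 0.18 and -0.00391, and the dashed line moves with it by the same amount, so their distance is fixed.

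Lists of genes that work beside the respiratory chain are given next, each to be read against the 11.3% of all genes that rose and the 9.35% that fell. Of 19 carriers, pores and import genes 8 rose and 0 fell (median 0.18), led by the import chaperone Timm13 (0.59, SE 0.14, adjusted p = 0.0269), the pyruvate carrier subunit Mpc1 (0.47), the import pore subunit Tomm7 (0.43) and the citrate carrier Slc25a1 (0.32). Centred on ribosomal protein genes, 1 of the 19 rose and 6 fell (31.6%), near the 29.9% of all genes that fell on that scale. Of 17 glycolysis genes 11 rose and 0 fell (median 0.36), with Pgam1 (0.46, SE 0.07, adjusted p = 0.00769), Aldoc (0.42), Pfkp (0.42) and Aldoa (0.41) the highest. With ribosomal centring 0 of the 17 rose and 1 fell, the median staying above 0 at 0.11. In the tricarboxylic acid cycle and pyruvate dehydrogenase list 3 of 15 rose and 2 fell (median 0.10). The pyruvate dehydrogenase subunit gene Pdhb (0.38) and malate dehydrogenase Mdh2 (0.32) rose, while Pdhx (-0.51), which tethers a component of that complex, and the succinyl-CoA ligase gene Sucla2 (-0.28) fell; with ribosomal centring 0 rose and 5 fell (33.3%), again near the share of all genes.

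Of 33 assembly factors, which build the complexes without staying in them, 4 rose and 4 fell (12.1% each, median 0.05), shares near the 11.3% and 9.35% of all genes. Those that rose were Surf1 (0.37), Cox18 (0.34), Cox20 (0.32) and Tmem126b (0.30). The complex II factor Sdhaf3 read 6.57, 7.06 and 6.499 with camptothecin and 7.89, 7.43 and 7.84 with DMSO, a change of -1.01 (SE 0.18, adjusted p = 0.0112). Tmem70, needed for ATP synthase assembly, changed by -0.59, Coa3, a complex IV factor, by -0.51, and Ttc19, a complex III factor, by -0.49. These 4 kept their call under median and ribosomal centring. Both lower the change of every gene alike, so the direction of these falls could not turn. With ribosomal centring 0 of the 33 rose and 13 fell, where 29.9% of all genes fell.

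Of 19 nuclear regulators of the chain 6 fell, against 9.35% of all genes, 0 rose and 13 did not pass the test (median -0.07). Nrf1 read 6.68, 6.62 and 6.76 with camptothecin and 7.63, 7.52 and 7.56 with DMSO, a change of -0.88 (SE 0.07, adjusted p = 0.000399). Ppargc1a, the coactivator that drives mitochondrial biogenesis, read 8.98, 8.95 and 8.92 against 9.78, 9.79 and 9.92, also a change of -0.88 (SE 0.07, adjusted p = 0.000368). In both, every camptothecin array lay below every DMSO array by more than the spread within either treatment. Mef2a (-0.99), a muscle and neuron transcription factor, and Creb1 (-0.91), the cyclic AMP response factor, had the largest falls of the list. Among genes named after their values were seen, Gabpa, the DNA-binding subunit of GABP, gave -0.01 (SE 0.06) and Tfam, the packaging factor of mitochondrial DNA, -0.02 (SE 0.09). With either centring, which lowers the change of every gene alike, 0 of the list rose. With median centring 6 fell and with ribosomal centring 12, against 11.1% and 29.9% of all genes. Nrf1 (106 kb), Ppargc1a (656 kb) and Mef2a (135 kb) are among the genes of 100 kb or more, whose median change was -0.14. Ppargc1b (102 kb), which fell by -0.50, is among them too. Creb1 (69.0 kb) falls in the range from 30 to 100 kb, where the median was 0.00. Tfb2m (17.8 kb) fell by -0.71, and in its range from 10 to 30 kb the median of all genes was 0.11. The part of span was not tested.

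**Figure D5:**
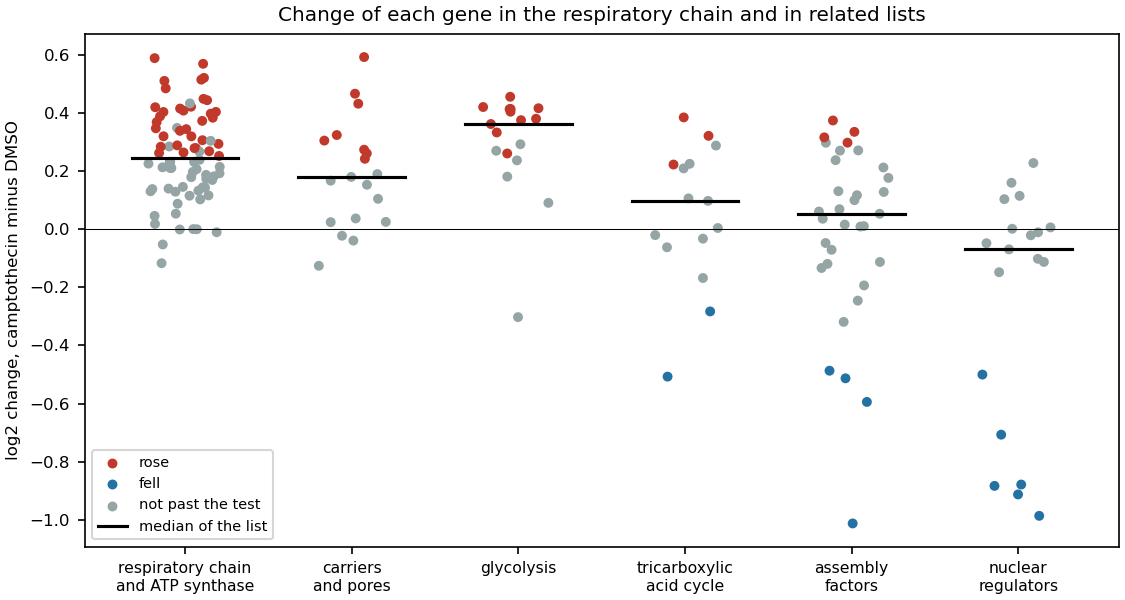
Log2 change of each gene, camptothecin minus DMSO, in the respiratory chain and ATP synthase and in 5 related lists; red, rose; blue, fell; grey, not past the test; black lines are list medians. Medians run from 0.36 for glycolysis to -0.07 for nuclear regulators, and the lowest points are Sdhaf3 and Mef2a.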

How the data were processed

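RNA from 6 cultures was hybridised to Affymetrix Rat Gene 1.0 ST arrays. The deposited values are log2 expression, one per transcript cluster and array; per the submitters' processing notes the authors used RMA and oligo. For versions, probe annotation and genome build: not given in the sources used here. Clusters were named through the platform annotation: 15310 had 1 symbol, 323 several and 13581 none. All 78 symbols equalled the current RefSeq symbol.

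The values were tested as deposited, unfiltered, with limma 3.58.1 (R 4.3.3) lmFit and eBayes, two-sided, adjusted over 29214 clusters at 0.05; SE is limma's. The fit was tested on simulated data. Lists are described by counts and medians, with no set test. All genes past the threshold are named, with array values for the 12 largest and the largest of each complex. In each related list the rule named up to 4 genes past the threshold, those with the largest change. Further genes of these lists are named after their values were seen. Other members that did not pass are named after their values were seen. The members and lists were chosen with earlier results of these data known. Alternatives were other scalings, a filter on dim clusters, a replicate block, other eBayes settings, array weights, and each array left out. The number of arrays limits the precision. Same-numbered arrays did not deviate together (r of -0.08, 0.02 and 0.08), so the numbers were not used as pairs.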

Additional observations from a re-analysis of the deposited data

How the results depend on the processing

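Of the 17 alternatives, the median change of the 78 genes kept its direction in all that can move it but 1, centring on ribosomal protein genes, where it was -0.00391; elsewhere it ran from 0.18 to 0.27. The count that rose was 34 in the main setting, 18 with arrays centred on their median, 5 with arrays centred on ribosomal protein genes (3 then fell), 52 with trend and robust eBayes, 8 at a threshold of 0.01 and 11 to 21 with 1 array left out. With the replicate number as a block, which uses up degrees of freedom and has no support as a pairing, 16 rose. The cause of these changes was not tested. It stayed within 1.5 times the main count (34 to 47) in the other alternatives, and 0 fell in all but ribosomal centring, a scaling that earlier work on these data chose after seeing them. Ndufs5, Atp5mc1, Uqcrq and Atp5po passed in all 16 alternatives run for single genes. Dim probes limit what the tissue isoforms can show.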
